A study of Homo sapiens with 25 samples.

Results

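The regions described are 12288 stretches of chromatin that carried H3K4me2 in human embryonic stem cells and neither H3K27ac nor H3K27me3 there, away from the ends of genes. They were taken from the 65586 merged H3K4me2 peaks of hESC replicate 1 that overlapped a replicate 2 peak, on chromosomes 1 to 22 and X, of which they make up 18.7%. Of those 65586, 36447 overlapped no peak in either hESC H3K27ac list and 22771 none in the hESC H3K27me3 lists either, and 12288 of these lay over 2 kb from any annotated gene start or end. The hESC lists chose the regions, so their hESC state is a description and not a finding. What the regions carried at later stages was not used to choose them.

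H1, a widely used line of human embryonic stem cells (hESC), was differentiated stepwise towards the pharynx. Cells were taken as definitive endoderm (hDE), as anterior foregut endoderm (hAFE) and lastly as pharyngeal foregut endoderm (hPFE). Chromatin immunoprecipitation with sequencing gave 1 peak list per library for 21 libraries, and 4 input samples served as the authors' controls. H3K27ac had 2 libraries at each stage, H3K27me3 had 2 at hESC, hDE and hPFE and 1 at hAFE, and H3K4me2 had 2 at hESC and hDE and 1 at hAFE and hPFE. All groups came from the same line, and the labels give no agent, dose or day of the differentiation. The labels call the 4 hESC libraries of H3K27ac and H3K27me3 re-analysed, and refer to records of an earlier deposit, so for these marks batch and stage cannot be told apart in any contrast with hESC. Whether 2 replicates came from different cultures is not stated in the labels.

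H3K4me2 is laid down at promoters and enhancers, the stretches of DNA that switch genes on from a distance, and it marks chromatin that regulators can reach. H3K27ac is added by acetyltransferases at enhancers and promoters in use, whereas H3K27me3 is written by Polycomb and lies over developmental genes held silent. Distal H3K4me2 without H3K27ac is commonly described as a primed state, from which an enhancer may be activated, silenced or lost when the cell changes its identity. Definitive endoderm is the germ layer from which the gut tube forms, the anterior foregut is its front part, and the pharyngeal endoderm gives rise to the thymus, parathyroid and thyroid.

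The stages were checked by H3K27ac within 1 kb of either end of marker genes. All 3 hESC markers had it in both hESC libraries. POU5F1 had it in no later library, NANOG again in both hDE and both hPFE libraries but in no hAFE library, and SOX2 in neither hDE library but in both of hAFE and of hPFE. All 5 hDE markers (SOX17, CXCR4, CER1, EOMES, GATA6) had it in both hDE libraries and in at most 1 library of any other stage. Of the 3 hAFE markers, which include SOX2, FOXA2 had it in both libraries of hDE, hAFE and hPFE, and HHEX in both hDE libraries and in no hAFE or hPFE library. Of the 5 hPFE markers, NKX2-6 had it in both hPFE libraries, PAX9, PAX1 and EYA1 in 1 and TBX1 in none. The markers of neural, mesodermal, mesenchymal and endothelial cells (PAX6, TBXT, PDGFRA, CDH5) had none in any library. Lists held 24871 to 111256 peaks for H3K27ac, 23457 to 76441 for H3K27me3 and 87357 to 116210 for H3K4me2, and the shortest H3K27ac lists were those of hAFE, with 42100 and 24871 peaks. Sequencing depth is unknown, since no read counts were used here, and a region without a listed peak may still carry the mark.

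A small group of the regions can be shown as sequence, because they overlapped a window around an annotated transcript start inside a gene. Of the 11734 regions on chromosomes 1 to 7, 9 to 22 and X, 334 (2.85%) overlapped a RefSeq window of 250 bases before to 50 after such a start (GRCh38.p14). The share with H3K27ac peaks in both libraries was higher in these 334 than in the other 11400, at 19.5% against 11.4% in hDE, 5.99% against 2.96% in hAFE and 15.3% against 6.07% in hPFE. H3K4me2 was absent from fewer of them, 25.7% against 63.7% in hDE, 36.8% against 75.5% in hAFE and 36.5% against 78.3% in hPFE. No test was made over regions, which are not replicates. The sequences shown are the bases of such windows that lie inside the region, at least 100 each. They were taken in the order hDE, hAFE and hPFE, for the 2 regions with the strongest H3K27ac at each stage that had not been taken before, so WBP1L, shown for hAFE, was passed over for hPFE. The 2 strongest hESC regions with no later H3K4me2 peak follow. They run 5′ to 3′ on the strand of the transcript, and capitals mark matches to 5 motifs searched on both strands: the GATA core GATAA, the forkhead motif TGTTTAC, the SOX core ACAAT, the octamer ATGCAAAT and the T-box motif AGGTGTGA.

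For hDE the stretches lie in ACOX3, a peroxisomal acyl-CoA oxidase gene (chr4:8428587-8428698, minus strand), and in BCAR3, which encodes a signalling adaptor (chr1:93681354-93681503, minus strand).
ACOX3: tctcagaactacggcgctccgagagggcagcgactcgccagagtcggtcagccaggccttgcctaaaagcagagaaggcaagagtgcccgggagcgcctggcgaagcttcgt
BCAR3: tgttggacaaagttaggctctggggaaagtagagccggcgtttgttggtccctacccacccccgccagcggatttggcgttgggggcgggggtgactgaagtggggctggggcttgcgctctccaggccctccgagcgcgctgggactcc
The fold enrichment of H3K27ac over input, the authors' value for a peak, was 14.4 and 15.0 in hDE replicates 1 and 2 over the ACOX3 region and 10.4 and 10.0 over the BCAR3 region. The ACOX3 region had no peak in hAFE and 1 of 3.73 in hPFE replicate 2, and the BCAR3 region had 1 of 3.22 in hAFE replicate 1 and none in hPFE. H3K4me2 was listed at every later library over the ACOX3 region but in neither hDE library over the BCAR3 region.

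For hAFE they lie in WBP1L, which encodes a WW domain binding protein-like factor (chr10:102775971-102776270, plus strand), and in CACNB2, a subunit of voltage-gated calcium channels (chr10:18400325-18400624, plus strand).
WBP1L: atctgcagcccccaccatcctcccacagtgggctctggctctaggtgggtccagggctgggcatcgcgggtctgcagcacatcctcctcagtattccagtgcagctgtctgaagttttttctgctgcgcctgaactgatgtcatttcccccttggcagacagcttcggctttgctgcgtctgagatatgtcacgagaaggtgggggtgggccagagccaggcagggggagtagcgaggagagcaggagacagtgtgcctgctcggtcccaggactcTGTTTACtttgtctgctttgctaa
CACNB2: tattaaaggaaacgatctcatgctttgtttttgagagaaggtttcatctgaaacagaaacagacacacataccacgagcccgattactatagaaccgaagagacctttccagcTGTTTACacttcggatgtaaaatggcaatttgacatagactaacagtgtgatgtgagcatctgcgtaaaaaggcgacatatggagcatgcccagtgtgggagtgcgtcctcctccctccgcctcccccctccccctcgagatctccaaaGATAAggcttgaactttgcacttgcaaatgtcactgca
The WBP1L region, 1759 bp wide, had H3K27ac in all 6 later libraries, with fold enrichments of 5.35 and 5.61 in hDE, 4.75 and 3.21 in hAFE and 13.5 and 9.45 in hPFE. The CACNB2 region had 3.01 in hDE replicate 1, no peak in hDE replicate 2, 4.09 and 4.41 in hAFE and no peak in hPFE.

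For hPFE they lie in CREBZF, a leucine zipper transcription factor gene (chr11:85663552-85663851, minus strand), and in CDC25B, a phosphatase that activates cyclin-dependent kinases (chr20:3795539-3795838, plus strand).
CREBZF: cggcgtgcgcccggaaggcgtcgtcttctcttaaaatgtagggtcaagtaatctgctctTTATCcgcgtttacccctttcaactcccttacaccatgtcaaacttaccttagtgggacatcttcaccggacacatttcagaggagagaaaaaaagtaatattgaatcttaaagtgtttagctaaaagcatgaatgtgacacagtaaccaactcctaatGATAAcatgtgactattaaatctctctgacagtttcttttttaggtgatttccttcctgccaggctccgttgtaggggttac
CDC25B: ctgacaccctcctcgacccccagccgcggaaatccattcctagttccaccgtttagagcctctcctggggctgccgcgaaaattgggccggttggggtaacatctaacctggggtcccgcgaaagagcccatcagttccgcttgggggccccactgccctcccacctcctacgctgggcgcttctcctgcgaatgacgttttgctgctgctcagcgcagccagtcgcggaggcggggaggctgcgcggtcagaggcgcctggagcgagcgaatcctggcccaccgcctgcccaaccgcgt
Over the CREBZF region H3K27ac had fold enrichments of 3.17 in hDE replicate 2, 9.76 in hAFE replicate 1 and 9.28 and 16.1 in hPFE. Over the CDC25B region it had 2.78 and 3.20 in hDE, no peak in hAFE and 6.30 and 4.57 in hPFE.

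Regions that kept no H3K4me2 peak at any later stage are shown by EPS8L2, which encodes a regulator of actin (chr11:720390-720689, plus strand), and RGS3, a regulator of G protein signalling (chr9:113501349-113501556, plus strand).
EPS8L2: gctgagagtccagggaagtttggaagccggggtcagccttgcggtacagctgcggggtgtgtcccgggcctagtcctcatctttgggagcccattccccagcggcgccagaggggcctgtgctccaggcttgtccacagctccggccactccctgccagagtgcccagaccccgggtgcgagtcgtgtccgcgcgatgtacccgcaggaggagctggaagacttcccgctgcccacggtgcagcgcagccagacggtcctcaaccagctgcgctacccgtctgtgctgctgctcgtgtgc
RGS3: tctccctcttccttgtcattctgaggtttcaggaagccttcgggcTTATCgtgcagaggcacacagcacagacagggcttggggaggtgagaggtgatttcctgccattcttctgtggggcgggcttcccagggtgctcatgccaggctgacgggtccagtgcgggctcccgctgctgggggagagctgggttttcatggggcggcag
In hESC their H3K4me2 fold enrichments were 5.43 and 5.86 for EPS8L2 and 5.02 and 6.08 for RGS3, and neither had a later H3K27ac peak. Of the 8 stretches, 3 held the GATA core, 2 the forkhead motif and none the other 3 motifs. Among 34961 RefSeq windows, each 300 bases long and so at least as long as any stretch shown, 22.7% held the GATA core, 3.42% the forkhead motif, 27.3% the SOX core, 1.77% the octamer and 0.984% the T-box motif. No motif matches overlapped. A match is a description and not a binding site.

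The regions were narrow and modest in hESC. Their widths ran from 150 to 2840 bp with a median of 283 bp, and their hESC H3K4me2 fold enrichments had medians of 3.66 in replicate 1 and 3.73 in replicate 2. By −log10 p they stood near the middle of the hESC lists, at median percentiles of 52.3 and 47.3. Inside protein-coding genes lay 7344 of them (59.8%), and the median distance to the end of a protein-coding gene was 28300 bp. The distance to the nearest hESC H3K27ac peak had a lower quartile of 626 bp and a median of 4940 bp. As 3 sets to compare with, 3414 distal replicated H3K4me2 regions had H3K27me3 in both hESC libraries and H3K27ac in neither, 6365 had H3K27ac in both and H3K27me3 in neither, and 10483 had neither mark but lay within 2 kb of a gene end. Median widths in these sets were 514.5, 484 and 384 bp.

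Most of the distal regions without either mark no longer had a H3K4me2 peak at later stages. In hDE 27.4% (95% interval 26.6 to 28.2) had one in replicate 1 and 30.1% (29.3 to 30.9) in replicate 2. In hAFE the share was 25.6% (24.8 to 26.3), and in hPFE 22.7% (22 to 23.5). The mark was absent from both hDE libraries at 7711 regions (62.8%), where 32.3% of all 65586 replicated hESC H3K4me2 regions lacked it. It was absent from the single hAFE library at 9147 regions (74.4%, against 43.3% of all) and from the single hPFE library at 9496 (77.3%, against 44.8%). A stage with 2 libraries has more chances of a peak, so the shares per library and not the counts set hDE beside hAFE and hPFE.

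**Figure D1:**
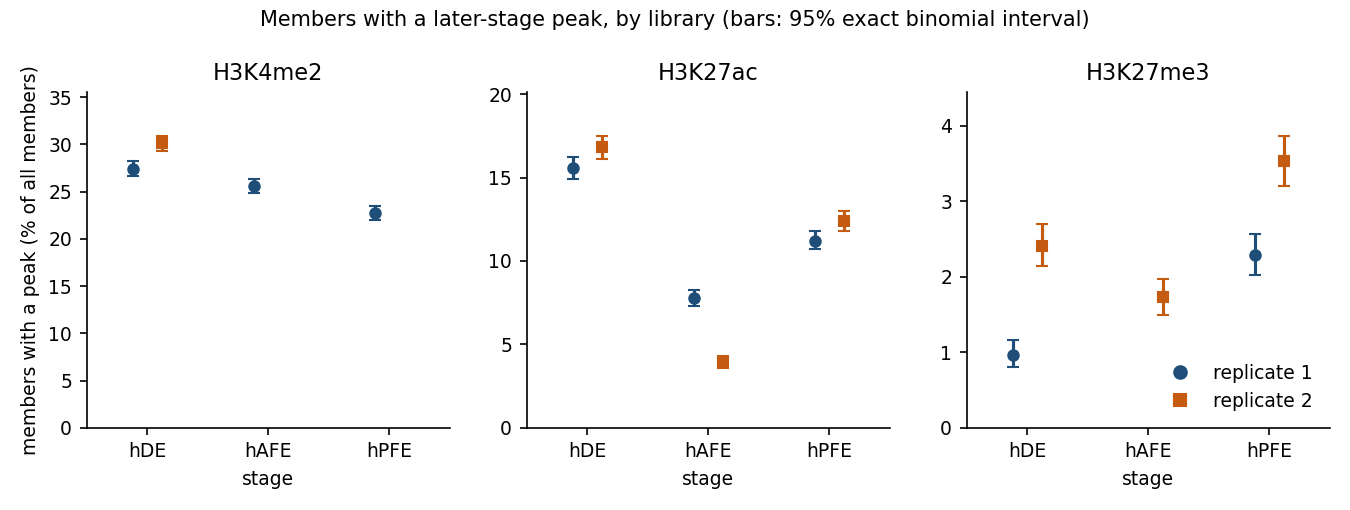
Share of the 12288 regions with a peak of H3K4me2, H3K27ac or H3K27me3 (percent, y axis, a separate scale for each mark) at each later stage (x axis), with 1 point per library and exact binomial 95% intervals. H3K4me2 lies between 22.7% and 30.1%, H3K27ac is lowest in hAFE replicate 2 at 3.94%, and H3K27me3 stays at or under 3.53%.

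In 6412 regions (52.2%, against 25.3% of all replicated regions) no later library had H3K4me2, and in 1216 (9.90%, against 42.0%) all 4 had it. Both hDE libraries kept it at 2486 regions (20.2%, against 53.3%), the hAFE library at 3141 (25.6%, against 56.7%) and the hPFE library at 2792 (22.7%, against 55.2%). Small numbers had it at 1 later stage and not at the others: 569 in both hDE libraries, 601 in hAFE and 443 in hPFE. The 2091 regions with a peak in 1 of 2 hDE libraries are in none of these counts. A count for hDE needs both libraries, and one for hAFE or hPFE needs a single library, so these counts do not rank the stages. Nor were they made over all replicated regions. The distal regions with H3K27me3 in hESC lacked H3K4me2 at 26.6% in hDE, 45.9% in hAFE and 50.1% in hPFE. Those with H3K27ac lacked it at 48.2%, 61% and 64.9%. Gene-end regions with neither mark lacked it at 26.1%, 37.2% and 36.9%.

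These sets differ in width and in how strong the hESC peak was. Read over a fixed window of 500 bp around each middle, H3K4me2 was absent from 59.8% of the distal regions without either mark in hDE, 71.9% in hAFE and 75.3% in hPFE, against 48.0%, 61.6% and 65.2% of the distal regions with H3K27ac and 23.3%, 34.4% and 34% of the gene-end set. The regions were divided into 4 groups of 3072 by hESC rank, taken as the lower of both replicates' percentiles. The highest group lacked H3K4me2 in 32.2% of regions in hDE, 50.8% in hAFE and 53.5% in hPFE. The lowest group lacked it in 78.5%, 85.4% and 88.6%. From the lowest rank of that highest group upwards, where 3081 of the regions and 39188 of all replicated regions stood, 32.3% against 12.2% lacked it in hDE, 50.9% against 22.7% in hAFE and 53.6% against 23.9% in hPFE. From that rank upwards the distal regions with H3K27ac lacked it in 28.0% in hDE, 42.3% in hAFE and 45.2% in hPFE. The distal regions with H3K27me3 lacked it in 15.4%, 34.5% and 39.8%, and the gene-end set in 10.8%, 20.7% and 20.2%. The rank has a lower limit alone, and above it the sets may still differ in strength. No test was made over regions.

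**Figure D2:**
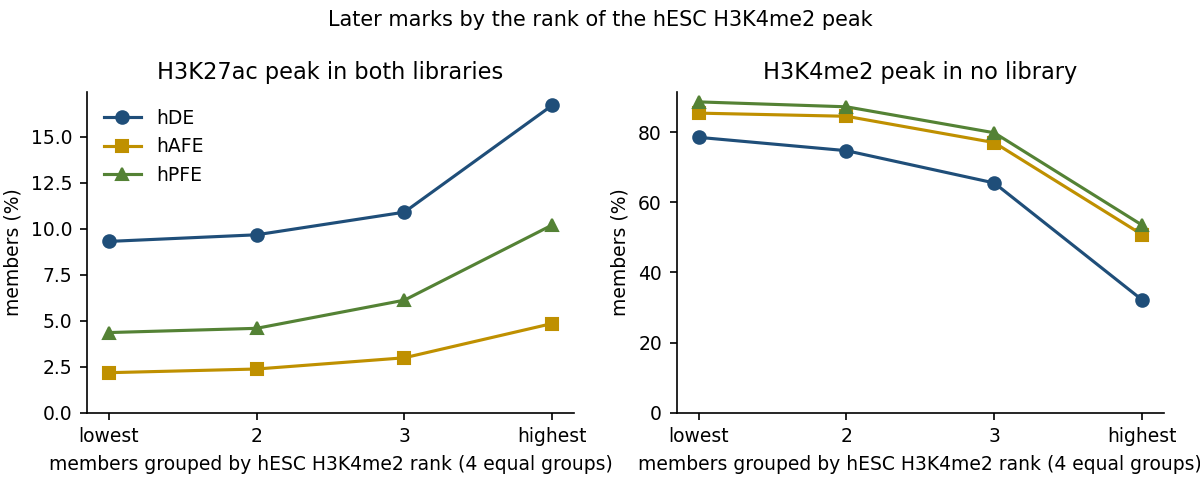
Share of regions (percent, y axis) with H3K27ac in both libraries (left) and with H3K4me2 in no library (right) at each later stage, over 4 equal groups of the 12288 regions by the rank of their hESC H3K4me2 peak (x axis). In hDE the highest group has gains at 16.7% and absence of H3K4me2 at 32.2%, against 9.31% and 78.5% in the lowest group.

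Absence also varied with place. Just inside the distance limit, the 1355 regions at 2 to 3 kb from a gene end lacked H3K4me2 in 49.6% of cases in hDE, 63.8% in hAFE and 66.2% in hPFE. Over 50 kb away the 1691 regions lacked it in 71.2%, 82.9% and 85.7%. Just outside the limit, 2207 regions with neither mark at 1 to 2 kb lacked it in 39.3%, 53.0% and 55.5%. Regions inside protein-coding genes lacked it in 59.4%, 70.8% and 74.0%, and regions between genes in 67.8%, 79.8% and 82.2%.

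Among regions with no later H3K4me2 peak, the one with the highest hESC rank lies in CPAMD8, a gene of the complement and macroglobulin family (chr19:16896085-16896398), with hESC fold enrichments of 8.70 and 9.84. It had no later H3K27ac peak, and H3K27me3 was listed over it in the single hAFE library and in 1 hPFE library. EML2, which encodes a microtubule-binding protein, had 8.24 and 11.2 in hESC at chr19:45632877-45633422 and no later peak of any of the 3 marks. SLC30A3, a zinc transporter gene of synaptic vesicles, had 8.19 and 10.1 at chr2:27250457-27250916 and likewise no later peak. PIK3R5, a regulatory subunit of phosphoinositide 3-kinase gamma, differed: its region at chr17:8894312-8894847 had 7.83 and 9.99 in hESC, and H3K27ac of 4.79 and 5.45 in hDE with no H3K4me2.

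H3K27ac appeared at a minority of the regions, most often in hDE. In hDE 15.6% (14.9 to 16.2) had a peak in replicate 1 and 16.8% (16.1 to 17.5) in replicate 2. In hAFE these shares were 7.80% (7.33 to 8.28) and 3.94% (3.6 to 4.30), and in hPFE 11.2% (10.7 to 11.8) and 12.4% (11.8 to 13.0). A region counted as gained at a stage when both libraries had a peak over at least 1 bp of it. In hDE 1431 regions (11.6%) were gained, against 15.6% of the 36447 replicated hESC H3K4me2 regions that had no hESC H3K27ac. In hAFE 381 (3.10%, against 3.87%) and in hPFE 777 (6.32%, against 10.2%) were gained. Each share lay under its background. Gain of H3K27ac was thus not more frequent at these regions than at hESC H3K4me2 regions without H3K27ac at large. That background includes these regions and regions near gene ends. Against all replicated regions, these were narrower (median 283 against 464 bp) and weaker in hESC (median of the lower replicate percentile 36.3 against 63.6). The shares were not adjusted for width, hESC strength or place, so the lower gain is not shown to be particular to these regions.

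The lists behind these counts have unequal lengths. With every H3K27ac list cut to the same number of best peaks, 24790, the gained regions were 489 in hDE, 301 in hAFE and 262 in hPFE, so hDE stayed highest while hAFE stood above hPFE. Without hAFE replicate 2 the hAFE count was 958 and without hAFE replicate 1 it was 484. Without hPFE replicate 1 the hPFE count was 1526 and without replicate 2 it was 1377. A call then needs only the library that is left, so these counts are higher by construction.

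Of the comparison sets, the distal regions with H3K27me3 in hESC had H3K27ac in both libraries at 7.5% in hDE, 2.23% in hAFE and 4.42% in hPFE. The gene-end regions with neither mark had it at 26.0%, 5.73% and 18.1%. The distal regions that already had H3K27ac in hESC had it at 42.0%, 20.7% and 27.4%. From the lowest rank of the highest group upwards the shares were 16.7% in hDE, 4.87% in hAFE and 10.2% in hPFE for the distal regions without either mark, 8.35%, 2.66% and 5.61% for those with H3K27me3 and 34.3%, 7.57% and 25% at gene ends. Just inside the distance limit of 2 kb 13.2% of regions were gained in hDE, 3.17% in hAFE and 6.94% in hPFE. Just outside it the shares were 14.5%, 3.58% and 7.25%. No test was made between the sets.

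**Figure D3:**
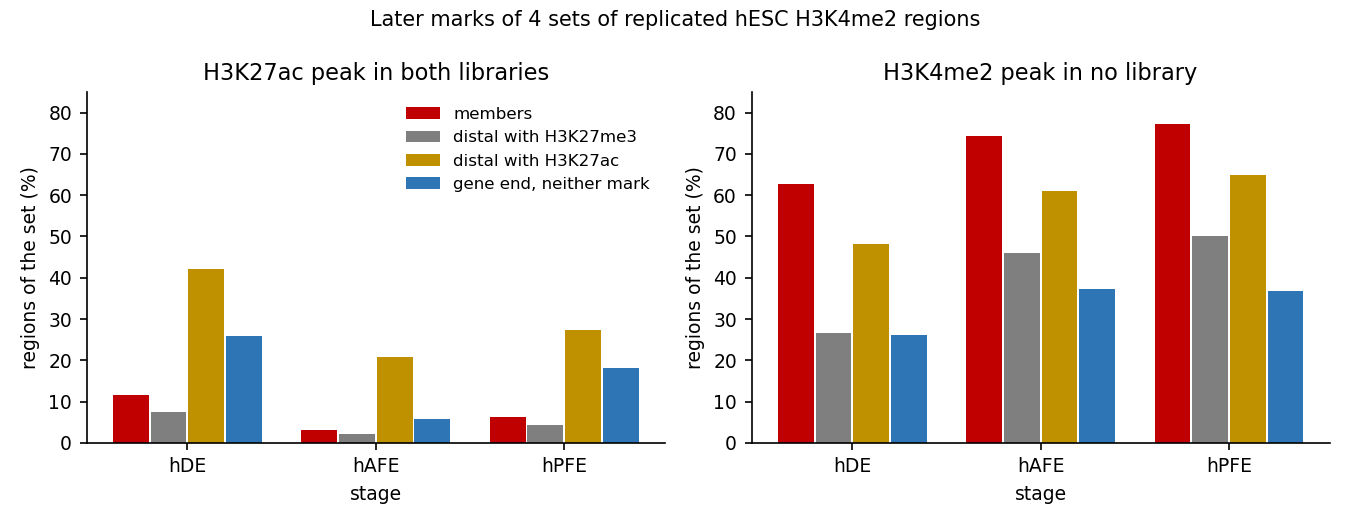
Percent of regions (y axis) with H3K27ac in both libraries (left) and with H3K4me2 in no library (right) at each later stage (x axis) for the distal regions with neither hESC mark, called members, and the 3 comparison sets. In hDE the members stand at 11.6% for H3K27ac, between 7.5% for distal regions with H3K27me3 and 26.0% at gene ends, and at 62.8% for absence of H3K4me2, the highest of the 4 sets.

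Most regions never had H3K27ac in the lists. In 8394 (68.3%, against 63.6% of regions without hESC H3K27ac) none of the 6 later libraries had a peak, and in 1981 (16.1%, against 20.5%) both libraries of at least 1 stage had one. The most frequent gained pattern was both hDE libraries with no peak in hAFE or hPFE, at 708 regions (5.76%, against 4.92%). Both hPFE libraries alone had a peak at 185 regions (1.51%, against 1.37%) and both hAFE libraries alone at 32 (0.26%, against 0.17%). Both libraries of all 3 stages had one at 122 regions (0.993%, against 1.9%).

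Of the 1431 regions gained in hDE, 1003 (70.1%) had no H3K27ac in either hAFE library and 796 (55.6%) none in either hPFE library. Those 796 are 6.48% of all the regions, against 5.82% of replicated regions without hESC H3K27ac. Of the latter, 5694 were gained in hDE and 2123 of these had no H3K27ac in either hPFE library. Both hPFE libraries had it at 320, which is 22.4% of the hDE gains and 41.2% of the 777 hPFE gains. Between hAFE and hPFE, 221 regions were shared, 58.0% of the 381 hAFE gains and 28.4% of the hPFE gains. These calls rest on different later libraries over one set of regions, and the hESC lists enter only through the choice of regions. The counts of 1003, 320 and 221 were not made over all replicated regions. The hAFE lists were the shortest, with 42100 and 24871 peaks.

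Which regions had H3K27ac was compared between libraries of 1 stage and of different stages. The Jaccard index, the number of regions with a peak in both libraries over the number with a peak in either, was 0.562 between the hDE libraries, 0.359 between the hAFE libraries and 0.365 between the hPFE libraries. Between stages it ran from 0.113 (hAFE replicate 2 with hDE replicate 2) to 0.336 (hAFE replicate 1 with hPFE replicate 1). The mean was 0.429 within stages and 0.201 between them, a difference of 0.228. In a one-sided exact permutation test over all 15 ways to pair the 6 libraries the labelled pairing had the largest difference (p = 0.0667), the smallest p this design can give.

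Regions that kept H3K4me2 carried most of the gains. In hDE 849 of the 2486 regions with H3K4me2 in both libraries (34.2%) were gained for H3K27ac, against 253 of the 7711 without it (3.28%). In hAFE the shares were 9.71% with H3K4me2 and 0.831% without, and in hPFE 19.6% and 2.42%. Seen from the other side, 59.3% of regions gained in hDE kept H3K4me2 in both hDE libraries and 17.7% had it in neither, while 12.3% and 72.7% of regions with no hDE H3K27ac did so. Both marks were read against the input of the same stage, and the H3K4me2 of hAFE and hPFE is that of 1 library. Neither this split nor the counts below were made over all replicated hESC H3K4me2 regions, so neither is shown to be particular to these. Both calls also varied with width. From the narrowest to the widest of 4 equal groups, hDE gains rose from 8.27% to 17.6%. Absence of H3K4me2 in hDE fell from 76.0% to 42.7%. Of all the regions, 5526 (45.0%) had neither H3K4me2 nor H3K27ac in any later library, 522 (4.25%) had H3K4me2 throughout and gained H3K27ac at some stage, and 390 (3.17%) had H3K4me2 throughout and H3K27ac in no library. No later H3K4me2 peak but a gain of H3K27ac at some stage was found at 279 (2.27%).

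**Figure D4:**
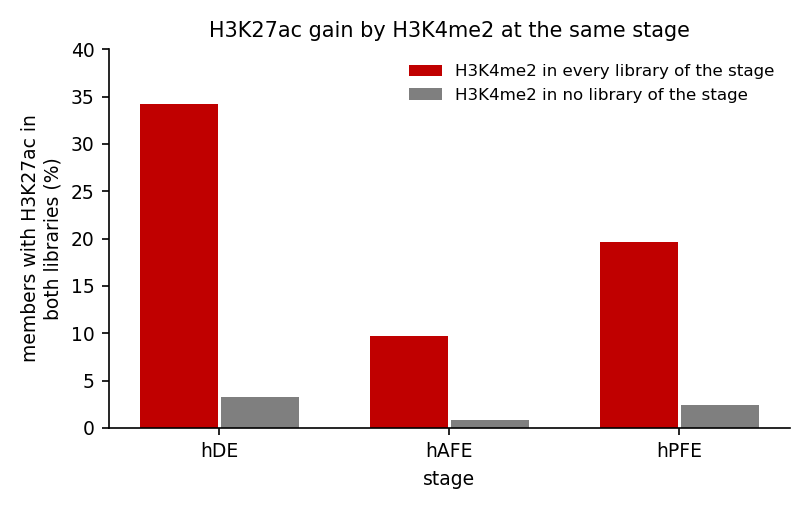
Percent of regions with H3K27ac in both libraries of a stage (y axis) by stage (x axis), for regions with H3K4me2 in every library of that stage and in none. The shares with H3K4me2 are 34.2% in hDE, 9.71% in hAFE and 19.6% in hPFE, each above the share without it (3.28%, 0.831% and 2.42%).

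H3K27me3 was rarely acquired. In hDE 0.968% (0.803 to 1.16) of regions had a peak in replicate 1 and 2.41% (2.15 to 2.70) in replicate 2, in the hAFE library 1.73% (1.5 to 1.97), and in hPFE 2.29% (2.03 to 2.57) and 3.53% (3.21 to 3.87). Both hDE libraries had it at 82 regions (0.667%, against 0.707% of the 50755 replicated regions without hESC H3K27me3), the hAFE library at 212 (1.73%, against 2.14%) and both hPFE libraries at 173 (1.41%, against 1.58%). None of these shares exceeded its background. With hESC H3K4me2 peaks of −log10 p of at least 5 the shares were higher, 1.31% in hDE, 3.23% in hAFE and 2.94% in hPFE. Over 1 kb from hESC H3K27ac and H3K27me3 peaks they were lower, 0.268%, 0.861% and 0.649%. No background was counted under these settings. The file names of the hESC, hDE and hPFE replicate 1 libraries of this mark carry the word millipore, which the sources used here do not explain. Without hDE replicate 1 the hDE count was 296, and without hPFE replicate 1 the hPFE count was 434 (281 without replicate 2). Without hESC replicate 2 of H3K27me3, which leaves the other hESC list to choose the regions, the counts were 180 in hDE, 374 in hAFE and 293 in hPFE. With a library left out, fewer lists decide, so these counts are higher by construction. No H3K27me3 peak in any later library was found at 11480 regions (93.4%, against 93.9%).

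Near genes of the early endoderm, the primitive streak and the Nodal pathway, gains in hDE were counted at larger shares than over all regions with a gene nearby. Lists of genes were read over regions within 100 kb of a protein-coding gene's start or end, each region with its nearest gene, where 12.2% of 9536 regions were gained in hDE, 3.18% in hAFE and 6.99% in hPFE. Near definitive endoderm genes 14 of 31 regions (45.2%) were gained in hDE, none in hAFE and 1 in hPFE. Near primitive streak genes it was 7 of 14 in hDE and none later, and near Nodal and TGF-beta genes 12 of 29 (41.4%) in hDE, 4 in hAFE and 3 in hPFE. The lists share genes such as LHX1, MIXL1, LEFTY1 and LEFTY2, so their counts are not separate pieces of evidence. With H3K27ac lists of equal length the hDE counts were 11 near definitive endoderm genes, 4 near streak genes and 4 near Nodal and TGF-beta genes. With an overlap of at least 200 bp they were 10, 4 and 5. Of all regions, with or without a gene nearby, 3.98% were gained in hDE with equal lengths and 5.57% with 200 bp. Shares under these settings were not taken over the 9536 regions alone.

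The region nearest OTX2, a homeobox factor of head and early endoderm, lies at chr14:56802625-56802849 and had H3K27ac fold enrichments of 15.0 and 14.4 in hDE and no peak in hAFE or hPFE. LEFTY2, which encodes a secreted Nodal antagonist, had a region 9.61 kb away at chr1:225950825-225951127 with 12.0 and 8.80 in hDE, and its relative LEFTY1 had one at chr1:225899554-225899946 with 5.65 and 10.4. Both had no H3K4me2 peak at any later stage and no H3K27ac in hAFE or hPFE, and both genes had H3K27ac at a gene end in both hDE libraries and in neither hESC library. These are therefore gains of H3K27ac where the H3K4me2 peak was no longer listed.

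Over the streak list 6 of the 14 regions had no H3K4me2 in either hDE library, among them the gained region of APLNR, the gene of the apelin receptor. The regions of 3 other streak genes had H3K4me2 in both hDE libraries. MIXL1, a homeobox factor of mesendoderm, had a region 12.5 kb away (chr1:226210443-226211173) with 6.78 and 6.36 in hDE. LHX1, a LIM homeobox factor of the organizer, had one 15.5 kb away (chr17:36920733-36921273) with 5.84 and 6.32. WNT3, the ligand needed for streak formation in mouse, had one 9.63 kb away (chr17:46772133-46772443) with 7.10 and 12.4 in hDE and 3.84 in hAFE replicate 1. All 3 genes had H3K27ac at a gene end in both hDE libraries and in no other library.

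Nodal signalling continues inside the cell through SMAD2 and SMAD3. The SMAD2 region 3.38 kb from a gene end (chr18:47927001-47927487) had 5.95 and 9.80 in hDE and 2.85 and 3.55 in hAFE. One SMAD3 region (chr15:67091599-67091921) had 5.61 and 7.60 in hDE and none later. Another SMAD3 region (chr15:67149717-67150556) had 3.21 and 2.94 in hDE, no peak in hAFE and 4.63 and 3.22 in hPFE. TGFBR1, a type I receptor, had a region at chr9:99105956-99106452 with 4.83 and 4.92 in hDE and 5.54 and 6.0 in hPFE. Of the WNT pathway, 9 of 37 regions were gained in hDE, 4 in hAFE and 5 in hPFE. Lists of equal length left 3 at each stage, where 3.98% of all regions were gained in hDE, 2.45% in hAFE and 2.13% in hPFE. FZD7, a WNT receptor, had a region 10.8 kb away (chr2:202022850-202023039) with 9.83 and 8.81 in hDE, 3.55 in hAFE replicate 1 and none in hPFE. Another FZD7 region, 37.3 kb away (chr2:201996139-201996589), had 4.77 and 6.14 in hDE, no peak in hAFE and 7.06 and 7.64 in hPFE.

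The highest ranked hDE gains were 2 neighbouring regions in VRTN, which encodes vertnin, at chr14:74352533-74352695 and chr14:74353141-74353540. One hDE peak per library spans both, with 18.2 and 24.8, and neither had a peak in hAFE or hPFE. Of the 1431 hDE gains, 53 in replicate 1 and 57 in replicate 2 shared their strongest peak with another region in this way. BEND3, a factor that binds heterochromatin, had a region at chr6:107061333-107062118 with 15.6 and 20.0 in hDE, and LRIG3, a membrane protein that modulates growth factor receptors, had one at chr12:58916641-58917366 with 16.6 and 17.1 in hDE, 4.47 and 4.18 in hAFE and 13.8 and 2.88 in hPFE. KLF8, a Krüppel-like factor, had a region at chrX:56231330-56232243 with 12.6 and 10.1 in hDE and none later, although H3K4me2 was listed there in all 4 later libraries.

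Some genes were nearest to several hDE gains. They are among the genes with the most gains, a choice that favours genes with many regions. Over all 12288 regions 11.6% were gained in hDE, 3.10% in hAFE and 6.32% in hPFE. BCOR, a corepressor that acts with Polycomb, was nearest to 21 regions, of which 6 were gained in hDE and none later. ZNF608 had 6 of 10 gained in hDE, 3 in hAFE and 3 in hPFE. BAMBI, a pseudoreceptor that dampens TGF-beta and BMP signals, had 5 of 6 gained in hDE, 5 in hAFE and 3 in hPFE. FREM1, a gene of the basement membrane, had 5 of 6 gained in hDE, and the nearest of these lay 26.9 kb from CER1, the gene of a secreted Nodal and BMP antagonist. Assignment to the nearest gene does not show which gene a region serves.

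Fewer regions were gained in hAFE, and the named ones were mostly marked at other stages too. The strongest lay 2.93 kb from MYCL, a MYC family factor, at chr1:39891810-39892495, with 11.1 and 12.3 in hDE, 16.8 and 9.85 in hAFE and 8.93 and 3.54 in hPFE. MYCL had no hESC H3K27ac at its gene ends and both libraries of each later stage had it. TCF7L2, a DNA-binding partner of beta-catenin, had an internal region at chr10:113128103-113128963 with 3.02 and 4.68 in hDE, 10.6 and 7.80 in hAFE and 5.25 and 4.92 in hPFE. ID3, a BMP target that blocks basic helix-loop-helix factors, had a region at chr1:23562100-23562554 with 5.43 in hDE replicate 1, 7.10 and 6.99 in hAFE and 7.45 and 9.59 in hPFE. MAML3, a Notch coactivator and among the genes with the most hAFE gains, was nearest to 4 regions. All of them were gained in hAFE and in hPFE and 2 in hDE, where 3.10%, 6.32% and 11.6% of all regions were.

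In hPFE, 12 of the 50 regions near foregut and pharynx genes (24.0%) were gained, against 6.99% of regions with any gene nearby. The same list had 7 gained regions in hDE and 4 in hAFE. The hPFE count was 4 with H3K27ac lists of equal length and 5 with an overlap of at least 200 bp. Under these settings 2.13% and 2.46% of all regions, with or without a gene nearby, were gained in hPFE. FOXE1, a forkhead factor of thyroid and pharynx, had a region 20.9 kb away (chr9:97831024-97832300) with 5.49 and 4.96 in hPFE and no peak in hDE or hAFE. H3K4me2 was listed there in all 4 later libraries, and the gene's own ends had H3K27ac in both hPFE libraries and in no earlier one. MEIS1, a homeobox cofactor, had a region at chr2:66508381-66508659 with no peak in hDE, 4.22 and 4.52 in hAFE and 8.79 and 4.20 in hPFE. A neighbouring MEIS1 region (chr2:66507508-66508255) had 4.14 in hDE replicate 1, 5.16 and 4.52 in hAFE and 8.79 and 3.44 in hPFE.

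PAX1, a paired box factor of pharyngeal pouches, had a region 49.1 kb away (chr20:21767572-21768271) with 2.40 and 4.90 in hDE, 3.18 in hAFE replicate 1 and 5.37 and 3.22 in hPFE. ISL1, a LIM homeobox factor of foregut and pharyngeal mesoderm, had one at chr5:51465079-51465309 with 3.81 in hAFE replicate 1 and 3.58 and 5.11 in hPFE. Near Notch genes 3 of 15 regions were gained in hDE, 3 in hAFE and 6 in hPFE (2 in hPFE with lists of equal length, 3 with 200 bp of overlap). The hPFE shares of all regions under these 2 settings were 2.13% and 2.46%. HES1, a Notch target, had a region at chr3:194133721-194134029 with 4.01 and 3.78 in hAFE and 4.78 and 4.92 in hPFE. CLDN4, a tight junction gene, had one at chr7:73827678-73827957 with 5.03 and 3.84 in hPFE and no peak in hDE or hAFE.

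**Figure D5:**
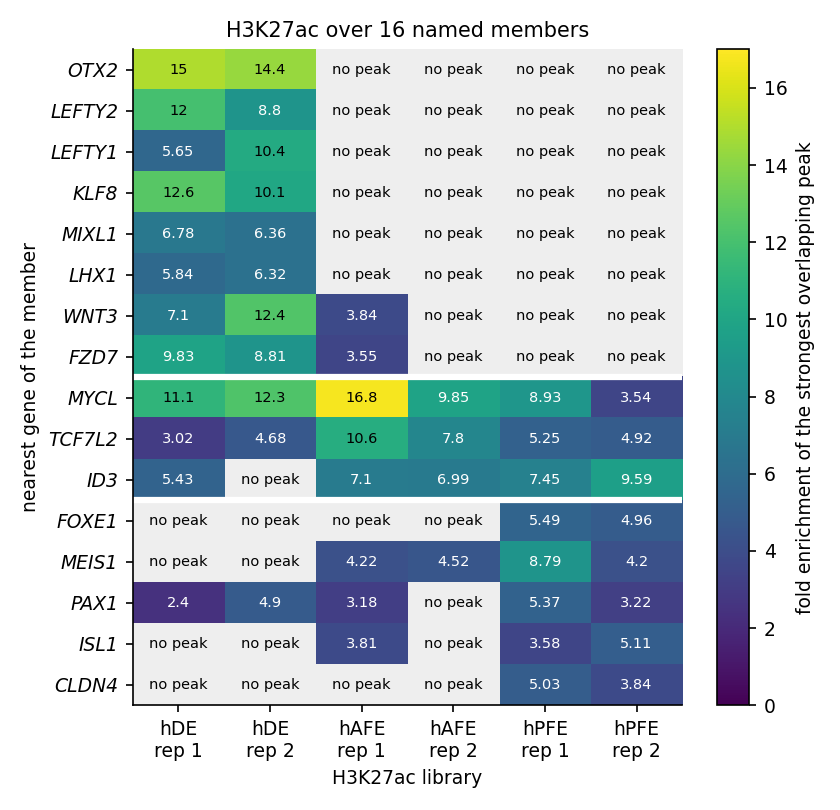
Fold enrichment of the strongest H3K27ac peak over 16 regions (rows, by nearest gene) in each later library (columns), with grey for no peak. The genes were picked from the named ones for display after their values were seen, and fold enrichments are the authors' values for each list. The first 8 rows have both hDE libraries marked and no hPFE peak, and the FOXE1 and CLDN4 rows have peaks in the hPFE libraries alone. Each row is a single region, and another FZD7 region, not shown, had peaks in both hPFE libraries. A neighbouring MEIS1 region, also not shown, had a peak in hDE replicate 1.

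The remaining lists are read against the same shares over all 9536 regions, 12.2% in hDE, 3.18% in hAFE and 6.99% in hPFE. In hDE the pluripotency (17.9%) and FGF (16.1%) lists stood higher, and the liver (13.6%) and thymus (12.5%) lists stood near that share. The highest in hAFE was BMP at 8.0%, and in hPFE epithelium at 13.3% and BMP at 12.0%. Each rests on at most 7 gained regions. Near neural genes none of 23 regions was gained at any stage, and near housekeeping genes none of 12 in hDE or hAFE and 1 in hPFE. Near pluripotency genes 7 of 39 were gained in hDE and none later, and they include the regions of OTX2 and LEFTY1. For FGF genes it was 5 of 31 in hDE, none in hAFE and 1 in hPFE, for BMP genes 1, 2 and 3 of 25, and for Hedgehog genes 1 at each stage of 26. Near genes of liver, pancreas and intestine 3 of 22 were gained in hDE, 1 in hAFE and none in hPFE, near those of lung, oesophagus and stomach 2, 1 and none of 30, and near those of thymus, parathyroid and thyroid 1 of 8 in hDE and none later. Neural crest and mesenchyme had 1 of 22 in hDE and none later, mesoderm, heart and blood 1, none and 1 of 18, epithelium 1, 1 and 2 of 15, and retinoic acid genes 1 at each stage of 17.

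Genes next to a gained region acquired H3K27ac at their own ends in a larger share than genes next to regions without a gain. Of protein-coding genes without it in hESC, 126 of the 391 nearest to a region gained in hDE (32.2%) had it in both hDE libraries, against 332 of the 1994 nearest to regions of which none was gained (16.6%), where 14.7% of all 9176 such genes did. In hAFE it was 16.7% against 3.65% (3.06% of all), and in hPFE 25.2% against 12.3% (11.5% of all). These gene ends and regions were read in the same libraries, and the share was not tested.

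The regions made up a small part of all new distal H3K27ac. Of 30819 merged distal hDE H3K27ac regions found in both libraries and without hESC H3K27ac, 1201 (3.90%) overlapped one of them. In hAFE it was 345 of 4485 (7.69%) and in hPFE 754 of 12225 (6.17%). No hESC H3K4me2 peak at all lay under 86.5% of these distal regions in hDE, 76.5% in hAFE and 81.1% in hPFE. The strongest H3K27ac peaks over gained regions had median fold enrichments of 4.44 and 4.82 in hDE, 5.00 and 3.70 in hAFE and 4.16 and 3.72 in hPFE. Each lay above the median of its own list, 3.52 and 3.54, 4.13 and 3.56, and 3.52 and 3.04. The highest were 24.8 in hDE, 16.8 in hAFE and 40.3 in hPFE.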

How the data were processed

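The data are 21 lists of peaks from chromatin immunoprecipitation with sequencing of H1 cells and their derivatives. The deposited file names show that the authors called peaks library by library with a stage-matched input as control, after sorting and removal of duplicates, with p under 0.01 and a cap of 500 K peaks per list. The submitters' processing notes name hg38 as the build. Which aligner and peak caller were used is not given in the sources used here. For every peak the deposited lists hold a fold enrichment (a ratio over input) and significance as −log10 p and as −log10 q. These were used to describe, rank or filter peaks within a list, and no value was compared between lists.

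Overlaps were computed with Python 3.11.15, NumPy 2.4.6 and pandas 2.3.3, and exact intervals with SciPy 1.17.1. A mark was present with at least 1 bp of a peak, gained with a peak in both libraries of a stage (or the only one), and absent with a peak in none. Percentile ranks by −log10 p were taken within each list. The nearest gene is the protein-coding gene with the nearest annotated start or end (GRCh38.p14, 19974 genes on the chromosomes used), and sequences are from RefSeq windows of that build. Regions are not replicates of a condition, so no test was made over them, and no p-value is given for a count, which has at most 2 libraries per stage. Intervals are exact binomial (Clopper-Pearson, 95%) and cover counting error only. The one test, over 6 libraries, was checked on simulated data. Its p gives only the rank of the labelled pairing among all 15 pairings, not the size of the difference. Whether replicates are separate cultures is not stated, so it does not measure spread between cultures.

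The regions, the 19 gene lists (422 genes, of which 2 were not found in the table) and the named genes' rule were chosen with earlier results of these data known. That rule names the 10 highest ranked gains per stage, up to 8 genes per list and stage, the 10 genes with the most gains per stage, and the 10 strongest hESC regions with no later H3K4me2. Those described in detail were picked from these after their values were seen, and so was the choice to print stretches at internal transcript starts, since no genome was used. Alternatives were peaks of −log10 p of at least 5 or −log10 q of at least 2, lists of equal length, an overlap of 200 bp, a distance of 5 kb, regions taken from replicate 2, stronger hESC peaks and each library left out. After the data were seen, a window of 500 bp and a distance of over 1 kb from hESC H3K27ac and H3K27me3 peaks were added. Some of the genes that the rule names are not reported here.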

Additional observations from a re-analysis of the deposited data

How the results depend on the processing

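Of 178 values under 27 settings, 110 stayed within 1.5 times of the value given and 68 moved further. Given as hDE, hAFE and hPFE, later peaks of −log10 p of at least 5 left 932, 173 and 413 H3K27ac gains and 32, 129 and 82 H3K27me3 gains. Peaks of −log10 q of at least 2 left 165 and 454 H3K27ac gains in hAFE and hPFE and 38, 137 and 91 H3K27me3 gains. Lists of equal length gave 489 and 262 H3K27ac gains in hDE and hPFE and 50 and 101 H3K27me3 gains there. An overlap of at least 200 bp, which is more than the width of many regions, left 685, 180 and 302 H3K27ac gains and 39, 109 and 72 H3K27me3 gains. Over 5 kb from gene ends, H3K27me3 gains were 51, 140 and 112.

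Stronger hESC H3K4me2 peaks (−log10 p of at least 5 in both replicates) left 4279 regions, with 663, 189 and 400 H3K27ac gains, H3K4me2 absent from 1772, 2486 and 2616, and 138 H3K27me3 gains in hAFE. As shares, 15.5% of these were gained for H3K27ac in hDE and 41.4% lacked H3K4me2 there. Their shares gained for H3K27me3 were 1.31% in hDE, 3.23% in hAFE and 2.94% in hPFE. Among all 12288 regions these were 0.667%, 1.73% and 1.41%. Over 1 kb from hESC H3K27ac and H3K27me3 peaks lay 7084 regions, with 631, 181 and 364 H3K27ac gains (8.91% in hDE), H3K4me2 absent from 4717, 5482 and 5702 (66.6% in hDE), and 19, 61 and 46 H3K27me3 gains. In both cases fewer regions are counted by construction.

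Leaving out 1 library at a time, the regions numbered 12472 to 48360, with 48360 without hESC H3K4me2 replicate 2 and 33772 without replicate 1, where 1 list chose them. H3K27ac gains ran from 1456 to 2794 in hDE, 387 to 958 in hAFE and 788 to 1526 in hPFE. H3K4me2 was absent from 7785 to 41400 in hDE, 9240 to 43685 in hAFE and 9597 to 44343 in hPFE. H3K27me3 gains ran from 89 to 296 in hDE, 245 to 374 in hAFE and 192 to 434 in hPFE. Leaving a library out loosens a call or the choice of regions. Higher counts are thus built in, and these are not ranges around the values given. The difference in Jaccard index ran from 0.151 to 0.287. Of 111 named gains, 82 were called with the −log10 p limit, 86 with the −log10 q limit, 71 with equal lengths and 59 with 200 bp of overlap. Of 156 counts of gains near gene lists under the 4 settings on later peaks, 69 stayed within 1.5 times. With lists of equal length, gains near foregut and pharynx genes in hPFE were 4 in place of 12, near Nodal and TGF-beta genes in hDE 4 in place of 12, near streak genes in hDE 4 in place of 7 and near Notch genes in hPFE 2 in place of 6. Gains over all regions fell too with these lists, to 489 in place of 1431 in hDE and 262 in place of 777 in hPFE.

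No paired analysis was possible because the one test pairs libraries by stage and the counts come from no test. Depth is unknown, and single libraries of H3K4me2 in hAFE and hPFE and of H3K27me3 in hAFE allow no check between replicates.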

Other observations

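Some genes were nearest to several regions with H3K27ac in hDE. The genes here and below are among those with the most gains at a stage, which favours genes with many regions. Of all 12288 regions 11.6% were gained in hDE, 3.10% in hAFE and 6.32% in hPFE. AUTS2, a gene linked to neurodevelopment that acts with Polycomb, was nearest to 20 regions, of which 5 were gained in hDE and none in hAFE or hPFE. CNTNAP2, a neuronal adhesion gene, had 4 of 12 gained in hDE and none later. ANK2, which encodes an ankyrin that anchors membrane proteins, had 4 of 8 gained in hDE and none later, with fold enrichments of up to 12.8 in replicate 1. JARID2, a cofactor of Polycomb, was nearest to 21 regions, of which 4 were gained in hDE, 2 in hAFE and none in hPFE. FSCN1, an actin-bundling gene, had all 4 of its regions gained in hDE, 1 in hAFE and 2 in hPFE.

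In hPFE, TNS3, a focal adhesion gene, was nearest to 9 regions, of which 1 was gained in hDE, 1 in hAFE and 5 in hPFE. TEAD1, the DNA-binding partner of YAP, had 4 of 9 gained in hPFE and none before. HMGA2, a chromatin protein of embryonic growth, had 2 of its 4 regions gained in hDE, 1 in hAFE and 3 in hPFE. Over all gains, 1431 in hDE had 1153 nearest genes, 381 in hAFE had 322 and 777 in hPFE had 648. Of these genes, 44 in hDE, 9 in hAFE and 18 in hPFE had at least 3 gained regions. No test was made.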
